A study of Mus musculus with 2 samples.

Results

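The Ighv genes are the variable (V) gene segments of the mouse immunoglobulin heavy chain, and every symbol in the table that begins with Ighv and had at least 1 UMI (unique molecular identifier, a tag that marks 1 captured RNA molecule) was taken. That gave 102 of the 183 Ighv symbols, in a table of 31017 gene symbols. The samples were spleen cells, profiled by droplet-based single-cell RNA sequencing of 3-prime libraries. The labels name 1 sample of mice that model Wiskott-Aldrich syndrome (WAS, an inherited immune deficiency), titled WAS660, and 1 sample titled WT664 (wild type), both spleen at 6 to 8 weeks of age and both carrying the same disease-model label, so the titles alone set them apart. The counts came as 1 table whose barcodes carry no sample name, so the table was treated as 1 pooled sample. WAS and WT cells cannot be told apart in it, no genotype was compared, and every difference below is between kinds of cells of that pool.

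Each B cell joins 1 Ighv segment to a D and a J segment on its heavy-chain locus, and the joined exon is transcribed with a constant gene such as Ighm or Igha. The V segment shapes the antigen-binding site, the constant gene sets the isotype, and the joined V exon marks the descendants of that B cell. V usage is known to differ between B cell subsets, the best known case in mice being the Ighv11 and Ighv12 genes of phosphatidylcholine-binding B-1 cells. In a 3-prime library most tags of a heavy-chain transcript lie in the constant gene, far from the V exon at its other end.

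The coding ends of 6 Ighv genes are shown because the usage results turn on them: Ighv3-6 led the most plasma cells, Ighv1-9 and Ighv9-3 led the most cells of the B cell gates marked by Bhlhe41 and Cd93, Ighv6-3 led the most cells of the Fcer2a gate, and Ighv11-2 and Ighv12-3 are the phosphatidylcholine genes. Each line gives the last 300 coding bases of the germline segment, 5′ to 3′, and the capitals mark the codons for Tyr, Tyr or Phe, and Cys that precede the third complementarity-determining region, where the D segment is joined.
Ighv3-6: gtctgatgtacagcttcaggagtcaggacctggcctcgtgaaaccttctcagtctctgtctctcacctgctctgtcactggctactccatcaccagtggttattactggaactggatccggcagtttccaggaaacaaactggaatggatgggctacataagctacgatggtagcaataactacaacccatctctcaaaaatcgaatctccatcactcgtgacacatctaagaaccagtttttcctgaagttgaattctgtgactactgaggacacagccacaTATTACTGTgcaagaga
Ighv1-9: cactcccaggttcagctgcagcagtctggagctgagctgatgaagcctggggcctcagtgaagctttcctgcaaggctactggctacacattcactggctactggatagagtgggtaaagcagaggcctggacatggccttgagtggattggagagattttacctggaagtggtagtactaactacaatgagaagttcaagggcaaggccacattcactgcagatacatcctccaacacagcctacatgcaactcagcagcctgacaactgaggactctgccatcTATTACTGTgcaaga
Ighv9-3: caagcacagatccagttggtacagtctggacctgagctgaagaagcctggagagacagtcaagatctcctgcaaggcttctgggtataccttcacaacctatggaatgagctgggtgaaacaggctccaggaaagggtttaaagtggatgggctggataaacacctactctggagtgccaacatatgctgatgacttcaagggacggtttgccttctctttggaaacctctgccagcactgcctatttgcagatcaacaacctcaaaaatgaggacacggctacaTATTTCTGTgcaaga
Ighv6-3: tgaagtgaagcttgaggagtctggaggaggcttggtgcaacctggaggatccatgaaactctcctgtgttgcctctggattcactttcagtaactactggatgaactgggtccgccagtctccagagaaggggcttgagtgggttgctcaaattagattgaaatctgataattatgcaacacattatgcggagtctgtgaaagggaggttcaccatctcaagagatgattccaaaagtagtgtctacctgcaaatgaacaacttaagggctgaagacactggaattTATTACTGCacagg
Ighv11-2: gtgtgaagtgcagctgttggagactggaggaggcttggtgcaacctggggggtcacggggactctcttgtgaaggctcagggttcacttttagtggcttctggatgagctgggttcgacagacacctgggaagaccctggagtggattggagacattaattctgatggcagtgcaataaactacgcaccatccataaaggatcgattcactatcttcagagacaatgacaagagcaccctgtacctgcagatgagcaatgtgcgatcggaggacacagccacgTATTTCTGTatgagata
Ighv12-3: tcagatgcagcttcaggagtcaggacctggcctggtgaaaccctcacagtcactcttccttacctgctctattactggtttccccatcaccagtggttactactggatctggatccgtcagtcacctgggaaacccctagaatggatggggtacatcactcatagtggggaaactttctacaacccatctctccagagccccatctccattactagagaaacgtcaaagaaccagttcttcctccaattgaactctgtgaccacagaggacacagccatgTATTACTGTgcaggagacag
All 6 lie on the minus strand of chromosome 12 in GENCODE vM21 for GRCm38, at chr12:114288152-114288451 for Ighv3-6, chr12:114583569-114583868 for Ighv1-9, chr12:114140692-114140991 for Ighv9-3, chr12:114391712-114392011 for Ighv6-3, chr12:114048241-114048540 for Ighv11-2 and chr12:114366521-114366820 for Ighv12-3. The annotation gives each as an IG_V_gene, a functional V segment, and the printed bases are exonic. Over these bases Ighv3-6 and Ighv12-3 were 77.2% identical, Ighv1-9 and Ighv9-3 were 67.7% identical, and the least alike pair, Ighv9-3 and Ighv12-3, was 52.6% identical. Every 90-base window of Ighv3-6, Ighv1-9, Ighv9-3, Ighv6-3 and Ighv12-3 was absent from all other Ighv transcripts, as were 80.4% of the windows of Ighv11-2.

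After removal of barcodes with under 200 genes or over 10% mitochondrial UMIs, 6588 of 7524 barcodes remained, with 500 to 129686 UMIs each (median 5339). Ighv genes gave 2688 of their 44751473 UMIs (0.00601%), spread over 101 genes, since the single UMI of Ighv1-43 lay in a removed barcode. Of the 113 Ighv genes annotated as functional, 95 had a UMI and 18 had none. Of the 70 annotated pseudogenes, 6 had a UMI, and these held 19 UMIs (0.707% of Ighv UMIs, 0.426 to 1.10). All intervals are 95% intervals (Clopper-Pearson for shares, exact Poisson for sums, exact conditional binomial for ratios) and cover counting error only, since the pool has no replicates and cells are not replicates. The detected genes had 1 to 259 UMIs each (median 14), 42 of them had at least 20, and the 10 most abundant held 39.8% of the Ighv UMIs. Some segments are near copies: Ighv1-62-2, Ighv1-71 and Ighv1-72 had under 50% unique 90-base windows, so their counts, and those of their copies, are uncertain.

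Cells were gated by raw markers. The plasma gate held 66 cells with at least 10 UMIs of Jchain, the joining chain of secreted antibody. Among 2823 other B cells, the Bhlhe41 gate (a transcription factor of B-1 cells) held 140 cells, the S1pr3 gate (a sphingosine phosphate receptor of marginal zone B cells) 65, the Cd93 gate (a surface protein of transitional B cells) 199, and the Fcer2a gate (CD23, of follicular B cells) 1474, and the other gates are set against it. A T gate held 534 cells with Cd3 and no UMI of the B cell genes or Jchain. The gates were checked with the marker genes that did not define them. In the plasma gate, Xbp1 and Prdm1, transcription factors of antibody secretion, had 1839 and 103 UMIs per 1000000 UMIs of the gate (CPM), against 63.1 and 3.98 in the Fcer2a gate. In the S1pr3 gate, Cr2 and Dtx1, a complement receptor and a Notch regulator of marginal zone cells, had 1417 and 421 CPM, against 328 and 68.5 in the Fcer2a gate. In the Bhlhe41 gate, Zbtb20 and Zbtb32 had 431 and 27.5 CPM, against 132 and 0.602 in the Fcer2a gate, while Cd5, a surface protein of many B-1 cells, stood at only 6.02 against 1.20. Zbtb20 also had 233 CPM in the S1pr3 gate. Of 5 marginal zone markers tested in the Bhlhe41 gate, 3 were over 2-fold higher than in the Fcer2a gate and 0 lower (4.3% and 5.7% of all genes tested). These were Cd9 (74.0 against 16.5 CPM), Fcrl5 (63.7 against 11.9) and Mzb1 (662 against 323). In the Cd93 gate, Vpreb3 and Myb had 625 and 56.3 CPM, against 301 and 14.2 in the Fcer2a gate.

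Other cells' genes moved with some gates. The 5 myeloid markers together had 265 CPM in the plasma gate, 275 in the Bhlhe41 gate, 214 in the S1pr3 gate, 3723 in the Cd93 gate and 658 in the Fcer2a gate. All 5 were detected in each. The 5 erythroid markers had 1451 CPM in the plasma gate, 6680 in the Bhlhe41 gate, 16168 in the S1pr3 gate, 10415 in the Cd93 gate and 14108 in the Fcer2a gate, again with all 5 detected. The 6 T cell markers had at most 27.4 CPM in any of the 5 gates, and Cd3d, Cd3e and Cd3g were at 0 in the B cell gates by construction. The 3 NK markers had 18.6 CPM in the plasma gate, 6.88 in the Bhlhe41 gate, 5.68 in the S1pr3 gate, 51.6 in the Cd93 gate and 43.4 in the Fcer2a gate, with Ncr1 and Klrb1c at 0 in the S1pr3 gate. The part of these cells or of their free RNA in the Ighv values was not tested.

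Ighv transcripts were counted in nearly all plasma-gate cells, in a minority of the cells of the other B cell gates and in 2 cells of the T gate. At least 1 Ighv UMI was found in 64 of 66 plasma-gate cells (97.0%, 89.5 to 99.6), in 30% of Bhlhe41-gate cells (22.6 to 38.3), in 13.8% of S1pr3-gate cells (6.53 to 24.7), in 35.7% of Cd93-gate cells (29.0 to 42.8) and in 42.3% of Fcer2a-gate cells (39.7 to 44.8). In the T gate 2 of 534 cells had 1 (0.375%, 0.0454 to 1.35), at a median depth of 6574 UMIs, against 29102 in the plasma gate, 7358 in the Bhlhe41 gate, 8094 in the S1pr3 gate, 5470 in the Cd93 gate and 5023 in the Fcer2a gate. All 5 gates lay above the T gate, but that gate was required to have no UMI of the B cell genes or Jchain, so cells with free B cell RNA were left out of it and its share can understate the background. The Bhlhe41 and S1pr3 gates lay below the Fcer2a gate although their cells were deeper. The interval of the Cd93 gate overlapped that of the Fcer2a gate. The 945 B cells outside the gates also lay below the Fcer2a gate, at 30.3% (27.3 to 33.3) and a median depth of 5065 UMIs. When every cell was set to 1000 UMIs by the exact expectation of random thinning, the shares were 38.1% in the plasma gate, 5.92% in the Bhlhe41 gate, 2.36% in the S1pr3 gate, 7.73% in the Cd93 gate, 10.7% in the Fcer2a gate and 0.0508% in the T gate. Shallower cells left out were 1 in the plasma gate, 1 in the S1pr3 gate and 2 in the T gate. The S1pr3 value lies below the 4.69% that 3 of its 64 cells would make. The remaining 3165 kept cells, which were neither plasma-gate, B nor T-gate cells, had 144 Ighv UMIs in 112 cells, and 92 of these 112 also had at least 3 UMIs of B cell genes and a Cd3 UMI. When Fcer2a-positive cells were allowed into the S1pr3 gate, its share was 25.2% (17.3 to 34.6).

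**Figure D1:**
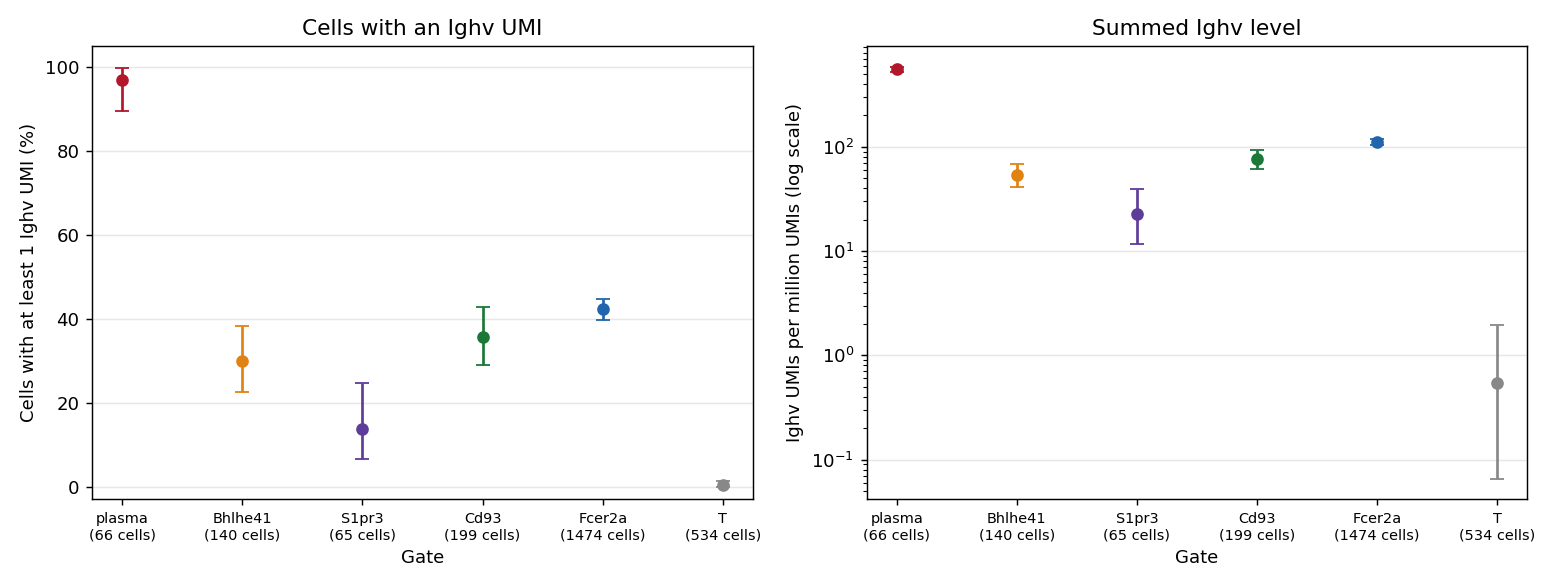
Share of cells with at least 1 Ighv UMI (left, percent) and summed Ighv CPM (right, log scale) in the plasma, Bhlhe41, S1pr3, Cd93, Fcer2a and T gates, with 95% binomial and Poisson intervals. The plasma gate stands highest at 97.0% and 553 CPM, the 4 B cell gates lie between 13.8% and 42.3%, and the T gate is lowest at 0.375%.

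As CPM, Ighv transcripts were 5.02-fold higher in the plasma gate and lower in the other 3 gates than in the Fcer2a gate. The sums were 1069 UMIs in the plasma gate (553 CPM, 521 to 587), 62 in the Bhlhe41 gate (53.3, 40.9 to 68.4), 12 in the S1pr3 gate (22.7, 11.7 to 39.7), 97 in the Cd93 gate (75.8, 61.5 to 92.5) and 914 in the Fcer2a gate (110, 103 to 117). The log2 ratio to the Fcer2a gate was 2.33 (2.20 to 2.46) for the plasma gate, -1.05 (-1.44 to -0.67) for Bhlhe41, -2.28 (-3.23 to -1.46) for S1pr3 and -0.54 (-0.86 to -0.23) for Cd93. None of these intervals held 0. The median log2 ratio over all genes with at least 20 UMIs was -1.15 for the plasma gate, -0.04 for Bhlhe41, -0.13 for S1pr3 and 0.03 for Cd93. Scaled without immunoglobulin genes, the plasma median was -0.33 and the plasma Ighv ratio 3.15, while the Ighv ratios of the other gates were -1.04 for Bhlhe41, -2.28 for S1pr3 and -0.54 for Cd93.

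Against the constant genes the plasma gate was lowest and the Fcer2a gate highest. The 8 heavy-chain constant genes gave 3859 UMIs per cell in the plasma gate, 49.0 in the Bhlhe41 gate, 35.6 in the S1pr3 gate, 37.9 in the Cd93 gate and 29.5 in the Fcer2a gate. Per 1000 constant-gene UMIs, there were 4.20 Ighv UMIs in the plasma gate (3.95 to 4.46), 9.03 in the Bhlhe41 gate (6.92 to 11.6), 5.18 in the S1pr3 gate (2.68 to 9.05), 12.9 in the Cd93 gate (10.4 to 15.7) and 21.0 in the Fcer2a gate (19.7 to 22.5). The Fcer2a interval overlapped none of the others, whereas the plasma and S1pr3 intervals overlapped each other. The Bhlhe41, S1pr3 and Cd93 gates were thus lower than the Fcer2a gate by both measures. So were the 945 B cells outside the gates, with 64.9 CPM (58.6 to 71.7) and 12.1 Ighv UMIs per 1000 constant-gene UMIs (10.9 to 13.4). The lower level was therefore not particular to these gates. The T gate held 3.19 constant-gene UMIs per cell and 1.17 Ighv UMIs per 1000 of them (0.142 to 4.24).

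By single genes, counted past a 2-fold difference in CPM, 7% of the 10111 genes tested were higher and 56% lower (63% in all) in the plasma gate than in the Fcer2a gate. Of the 30 Ighv genes with 20 UMIs over both gates, 22 were higher and 4 lower. Of these, 17 had under 20 UMIs in the Fcer2a gate and reached the minimum only with their plasma-gate UMIs, a selection that favours genes high in the plasma gate, and the count describes these 30 genes and not the 102. Scaled without immunoglobulin genes, which fill much of a plasma cell's RNA, 14.0% of genes were higher and 26.9% lower in the plasma gate, and 24 of the 30 Ighv genes were higher and 3 lower. In the Bhlhe41 gate 5.7% of 9981 genes were lower and 4.3% higher (10% in all), and of 13 Ighv genes tested 8 were lower and 0 higher. In the S1pr3 gate 12.5% of 9872 genes were lower and 5.85% higher (18.3% in all), and of 13 Ighv genes 10 were lower and 0 higher. In the Cd93 gate 3.42% of 10034 genes were lower and 4.44% higher (7.86% in all), and of 15 Ighv genes 6 were lower and 1, Ighv9-3, was higher. In these gates all tested Ighv genes, but for 2 in the Cd93 gate, reached 20 UMIs with Fcer2a-gate UMIs alone. That selection favours genes high in the Fcer2a gate. The S1pr3 gate had 12 Ighv UMIs, its 10 lower genes had 0, and every interval held 0. Of the lower genes, only Ighv1-26 and Ighv1-81 (Bhlhe41) and Ighv6-3 and Ighv1-82 (Cd93) had intervals below 0.

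A cell's leading Ighv gene was defined as the gene with at least 2 UMIs and more than any other Ighv gene of the cell. In cells with a leading gene, it held nearly all of the Ighv UMIs: 96.5% in the plasma gate (95.3 to 97.5), 100% in the Bhlhe41 gate, 94.4% in the Cd93 gate and 95.2% in the Fcer2a gate (92.7 to 97.0). By the definition a cell with 2 UMIs can only stand at 100%, and ties are left out, so these shares are partly fixed in the B cell gates. Of cells with at least 2 Ighv UMIs, a leading gene was found in 62 of 62 (plasma), 15 of 16 (Bhlhe41), 15 of 20 (Cd93) and 174 of 198 (Fcer2a). In 48 of 62 plasma-gate cells and 154 of 174 Fcer2a-gate cells with a leading gene, no second Ighv gene was seen. A second gene with at least 2 UMIs appeared in 5 plasma-gate cells, in 2 Fcer2a-gate cells and in 0 cells of the Bhlhe41, S1pr3 and Cd93 gates. The plasma pairs were Ighv5-2 with Ighv1-12 (67 and 11 UMIs), Ighv1-53 with Ighv1-55 (16 and 6), Ighv1-76 with Ighv2-5 (64 and 7), Ighv5-9-1 with Ighv1-82 (13 and 2) and Ighv5-15 with Ighv1-11 (29 and 2). The lead was smallest, relative to the second gene, in the Ighv1-53 cell (16 against 6).

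In the plasma gate, 62 cells were spread over 35 leading genes, and Ighv3-6 led the most. Ighv3-6 led 7 cells (11.3%, 4.66 to 21.9), against 7 of 174 in the Fcer2a gate (4.02%, 1.63 to 8.11), intervals that overlap. Ighv1-15 led 5 cells (8.06%, 2.67 to 17.8), against 4 of 174 (2.30%, 0.629 to 5.78), again with overlapping intervals. Ighv5-15, Ighv1-26, Ighv1-9, Ighv2-3 and Ighv5-9-1 led 3 cells each, 7 genes led 2 and 21 genes led a single cell.

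Counted by UMIs, the order was another, because a few cells held much of the total. Ighv3-6 had 192 UMIs (18% of the gate's Ighv UMIs, 15.7 to 20.4), against 34 in the Fcer2a gate (3.72%, 2.59 to 5.16). It was followed by Ighv1-66 with 82 UMIs in 1 cell, Ighv7-3 with 78 in 2 cells (74 of them in 1), Ighv1-76 with 72 in 2 cells (64 in 1) and Ighv5-2, a D-proximal gene that is rearranged often in early B cell development, with 67 in 1 cell. Of these 4 genes, Ighv1-66, Ighv7-3, Ighv1-76 and Ighv5-2 led only 1, 2, 2 and 1 cells. The 5 plasma-gate cells with over 50 Ighv UMIs held 34.1% of the total. Since UMIs of 1 cell are not independent, the intervals on UMI shares are narrower than the cells allow, and of these 5 genes only Ighv3-6 had its UMIs in more than 2 cells.

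**Figure D2:**
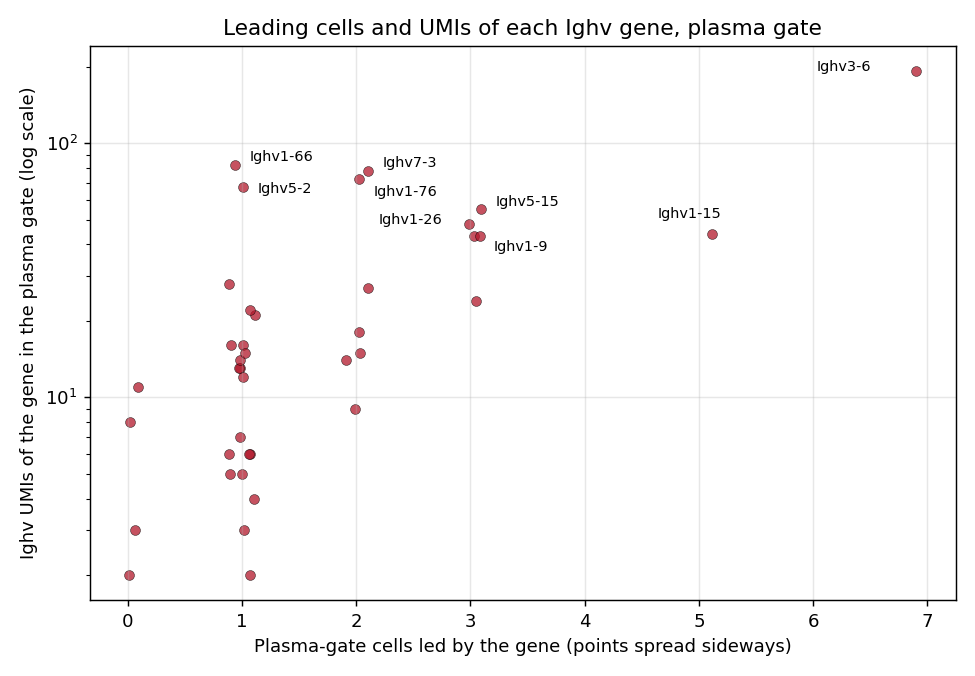
Number of plasma-gate cells led by each detected Ighv gene (x axis) against the gene's UMIs in that gate (y axis, log scale); each point is 1 gene. Ighv3-6 is at the top right with 7 cells and 192 UMIs, whereas Ighv1-66 and Ighv5-2 reach 82 and 67 UMIs with 1 cell each.

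The 7 cells led by Ighv3-6 had 59, 48, 37, 18, 14, 13 and 3 UMIs of it, with no other Ighv gene. By constant gene, 4 were Igha, 2 Ighg2c and 1 Ighm, and 6 had a leading light-chain V gene, of 4 kinds. Their light chains were Iglv1 in 3 cells (2 Ighg2c and 1 Igha) and Igkv12-41, Igkv10-96 and Igkv1-110 in 1 Igha cell each. By leading genes they held 4 heavy and light combinations, if Iglv1 is the true light chain of its 3 cells, which was not tested. The 5 Ighv1-15 cells had 22, 8, 8, 3 and 3 UMIs, 4 with Igha and 1 with Ighg3, and also held 4 light-chain genes, Igkv6-15 being shared by 2 Igha cells. Over all 60 plasma-gate cells with a leading heavy and light V gene, 45 of 1770 pairs shared the Ighv gene and 6 shared both genes: Ighv3-6 with Iglv1 gave 3 of these pairs, and Ighv1-15 with Igkv6-15, Ighv1-9 with a kappa gene and Ighv5-15 with Iglv1 gave 1 each. Iglv1 led the light chain in 26 of the 60 cells. Whether any pair descends from 1 cell was not tested. The 21 D and J segment symbols of the heavy chain had 0 UMIs.

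Plasma-gate cells differed by isotype in how much V transcript was counted. The isotype was clear, the leading constant gene holding at least 97.2% of each cell's constant UMIs (median 99.8%). It was Igha in 27 cells, Ighg2c in 14, Ighg2b in 4, Ighg3 in 2, Ighg1 in 1 and Ighm in 18. Per 1000 constant UMIs, Ighv UMIs numbered 4.70 in Igha cells (4.33 to 5.09), 5.46 in Ighg2c cells (4.88 to 6.10) and 2.35 in Ighm cells (1.95 to 2.80). Single cells ranged from 1.06 to 17.1 (median 2.96) among Igha cells, from 1.08 to 13.4 (median 4.86) among Ighg2c cells and from 0 to 6.59 (median 2.11) among Ighm cells. The ranges overlap, and the medians lie below the summed values, most of all among Igha cells. Both plasma-gate cells without an Ighv UMI were Ighm cells, but they were shallow. They had 594 and 3128 UMIs, with 51 and 289 constant UMIs, against a gate median of 29102 UMIs. The median depth was 23210 UMIs in Ighm cells, 28944 in Igha cells and 34147 in Ighg2c cells, and the part of depth was not tested.

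**Figure D3:**
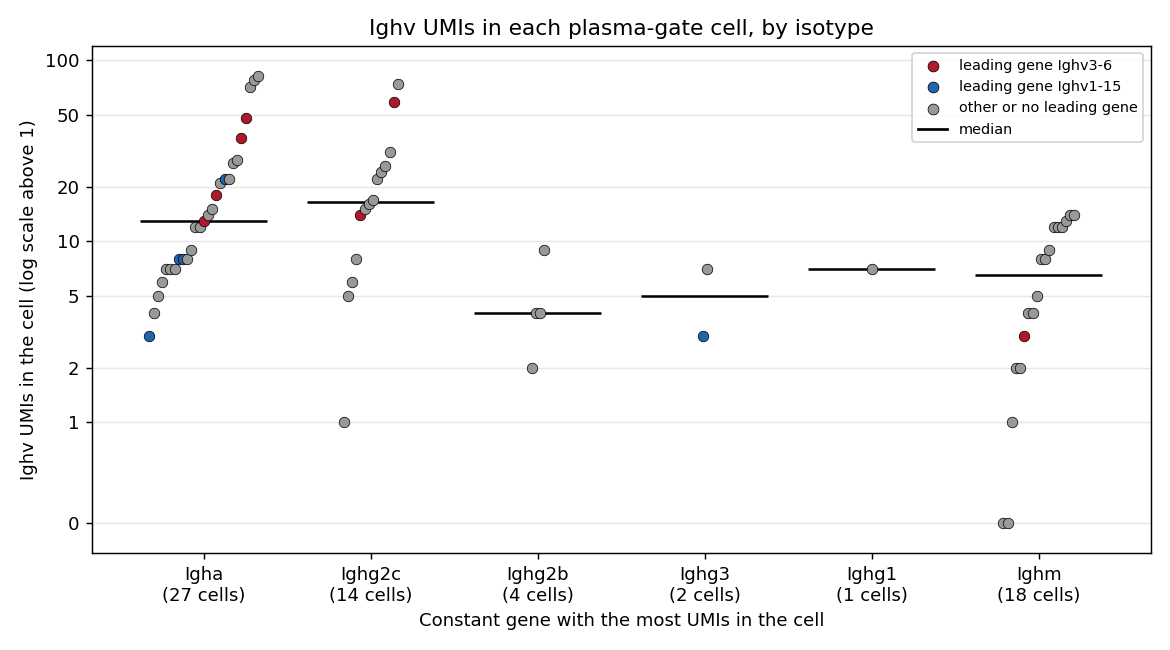
Ighv UMIs in each of the 66 plasma-gate cells (y axis, log scale above 1) by the constant gene with the most UMIs; the black line is the median and colours mark cells led by Ighv3-6 and Ighv1-15. The medians are 13 in Igha, 16.5 in Ighg2c and 6.5 in Ighm cells, and both cells at 0 are shallow Ighm cells (594 and 3128 UMIs).

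Within an isotype, most leading genes belonged to a single cell. The 27 Igha cells used 17 leading genes, and 4.56% of their cell pairs shared 1. The 13 Ighg2c cells with a leading gene used 12 (1.28% of pairs shared), and the 15 Ighm cells used 15, with no shared pair. For the plasma gate as a whole, 2.80% of pairs shared the leading gene (53 of 1891), against 1.93% in the Fcer2a gate (291 of 15051). With so few cells these shares carry no interval, and pairs that include the same cell are not independent.

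Of the 35 plasma leading genes, 26 also led a cell of the Fcer2a gate, which is 74.3% of the plasma genes and 41.9% of the 62 Fcer2a genes. With Fcer2a-gate cells of a single Ighv UMI counted too, 33 of the 35 were shared (94.3% of the plasma genes and 37.1% of 89). Ighv1-62-3 and Ighv5-12 remained. Only 55.1% of the sequence windows of Ighv1-62-3 were unique, and 47.2% of those of Ighv1-72. The plasma-gate cell led by Ighv1-62-3 also held 1 UMI of Ighv1-72. Both plasma-gate cells led by Ighv1-72 held 1 UMI of Ighv1-62-3. Whether UMIs were swapped between these genes was not tested, so the place of Ighv1-62-3 here is uncertain. In the other direction, the 3 genes with the smallest ratios of 14 compared were picked, Ighv6-3, Ighv2-2 and Ighv5-4. The Fcer2a gate also had more leading cells, 174 against 62, so more of its genes can lack a plasma-gate cell. These 3 genes led 10, 6 and 6 Fcer2a-gate cells and 0 of 62 plasma-gate cells. A count of 0 there allows a share of up to 4.84% (3 cells, exact interval 0 to 5.78). Ighv6-3 led 5.75% of the Fcer2a-gate cells (2.79 to 10.3), and these intervals overlap. In UMIs, Ighv6-3 had 0 in the plasma gate against 30 in the Fcer2a gate, and the whole Ighv6 family, of 5 functional genes, had 0 against 56.

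In the Bhlhe41 gate, 15 cells had a leading gene, and Ighv1-9 led 4 of them (26.7%, 7.79 to 55.1), against 8 of 174 in the Fcer2a gate (4.60%, 2.01 to 8.86). Each of the 4 had 2 UMIs of Ighv1-9, all were Ighm cells, and 1 further cell had 1 UMI. Ighv1-82 led 3 cells with 4, 2 and 2 UMIs (20%, 4.33 to 48.1), against 6 of 174 (3.45%, 1.28 to 7.35). Both genes were picked as the highest ratios of 9 genes compared, and their intervals overlap those of the Fcer2a gate. With single-UMI cells included, Ighv1-9 led 5 of 41 cells (12.2%, 4.08 to 26.2), against 21 of 599 (3.51%, 2.18 to 5.31), Ighv3-6 led 4 of 41 (9.76%, 2.72 to 23.1), against 23 of 599 (3.84%, 2.45 to 5.71), and Ighv1-82 led 3 of 41. All of these intervals of leading cells overlapped those of the Fcer2a gate. By UMIs, Ighv1-9 had 9 of the Bhlhe41 gate's 62 (14.5%, 6.86 to 25.8), against 34 of 914 in the Fcer2a gate (3.72%, 2.59 to 5.16), and Ighv1-82 had 8 (12.9%, 5.74 to 23.9), against 29 (3.17%, 2.14 to 4.53). The UMI intervals did not overlap, but they treat the UMIs of 1 cell as independent. With at most 5% mitochondrial UMIs, 16 Bhlhe41-gate cells and 1 leading cell remained, and none had Ighv1-9. Of the named genes, Ighv4-1 led 1 Bhlhe41-gate cell with 4 UMIs, and Ighv5-4, Ighv1-53, Ighv7-1, Ighv1-80 and Ighv6-3 led 1 each with 2.

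The phosphatidylcholine genes Ighv11-2 and Ighv12-3, the known mark of peritoneal B-1a cells, were rare. Both had 1 UMI in the Bhlhe41 gate, each in an Ighm cell with no other Ighv UMI, and 0 in the plasma, S1pr3 and Cd93 gates. Ighv11-2 had 1 UMI and Ighv12-3 had 0 in the Fcer2a gate. No cell of any gate was led by either gene at 2 UMIs, which in 15 Bhlhe41-gate cells allows a share of up to 20% (3 cells). With single-UMI cells, they led 2 of 41 Bhlhe41-gate cells (4.88%, 0.596 to 16.5), against 1 of 599 Fcer2a-gate cells (0.167%, 0.00423 to 0.927), on 3 UMIs in all. The intervals overlap. Outside the gates, Ighv12-3 had 1 UMI among the other B cells. Ighv11-2 had 2 UMIs among the kept cells that were neither plasma-gate, B nor T-gate cells, and led 2 of 110 there (1.82%, 0.221 to 6.41).

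In the Cd93 gate, Ighv9-3 was higher than in the Fcer2a gate by UMIs, by leading cells and with single-UMI cells included. It had 15 of the gate's 97 Ighv UMIs (15.5%, 8.92 to 24.2), against 21 of 914 in the Fcer2a gate (2.30%, 1.43 to 3.49), a log2 ratio of shares of 2.75 (1.69 to 3.78). The UMIs were spread over 8 cells with 4, 3, 2, 2, 1, 1, 1 and 1, none of which held another Ighv gene. Ighv9-3 led 4 of 15 cells (26.7%, 7.79 to 55.1), against 3 of 174 (1.72%, 0.357 to 4.96). With single-UMI cells it led 8 of 66 (12.1%, 5.38 to 22.5), against 18 of 599 (3.01%, 1.79 to 4.71). None of these 3 pairs of intervals overlapped, but the 3 measures draw on the same 15 UMIs in 8 cells and are not independent. Ighv9-3 was 1 of 11 genes compared for leading cells and was named for the largest ratio, so its size is the extreme of 11. All 8 were Ighm cells of 4306 to 7588 UMIs, close to the gate's median, and none had a Rag1 or Dntt UMI or 2 UMIs of a light-chain V gene. In other gates Ighv9-3 had 2 UMIs in 2 plasma cells, 1 in the Bhlhe41 gate, 0 in the S1pr3 gate and 1 in the T gate. In the 945 B cells with none of the gate markers or a mixture of them, with single-UMI cells, it led 10 of 280 (3.57%, 1.73 to 6.47), an interval that overlaps that of the Fcer2a gate. The Cd93 gate was the gate with the highest CPM of the myeloid markers (3723, against 658 in the Fcer2a gate), and the part of myeloid RNA in this result was not tested. With at most 5% mitochondrial UMIs, 18 Cd93-gate cells and 1 leading cell remained, and none had Ighv9-3.

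Elsewhere in the Cd93 gate no gene reached such a share. Ighv1-18 led 2 of 15 cells (13.3%, 1.66 to 40.5), against 4 of 174 (2.30%, 0.629 to 5.78), and with single-UMI cells 2 of 66 (3.03%), against 23 of 599 (3.84%), so its higher share was not kept. Ighv1-9, Ighv1-64, Ighv1-75 and Ighv2-2 led 1 cell each, and Ighv6-3 and Ighv1-26 led 0, against 10 and 7 Fcer2a-gate cells. Ighv1-26 had 4 single-UMI cells of 66 (6.06%, 1.68 to 14.8), near its 6.51% in the Fcer2a gate (4.67 to 8.79).

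**Figure D4:**
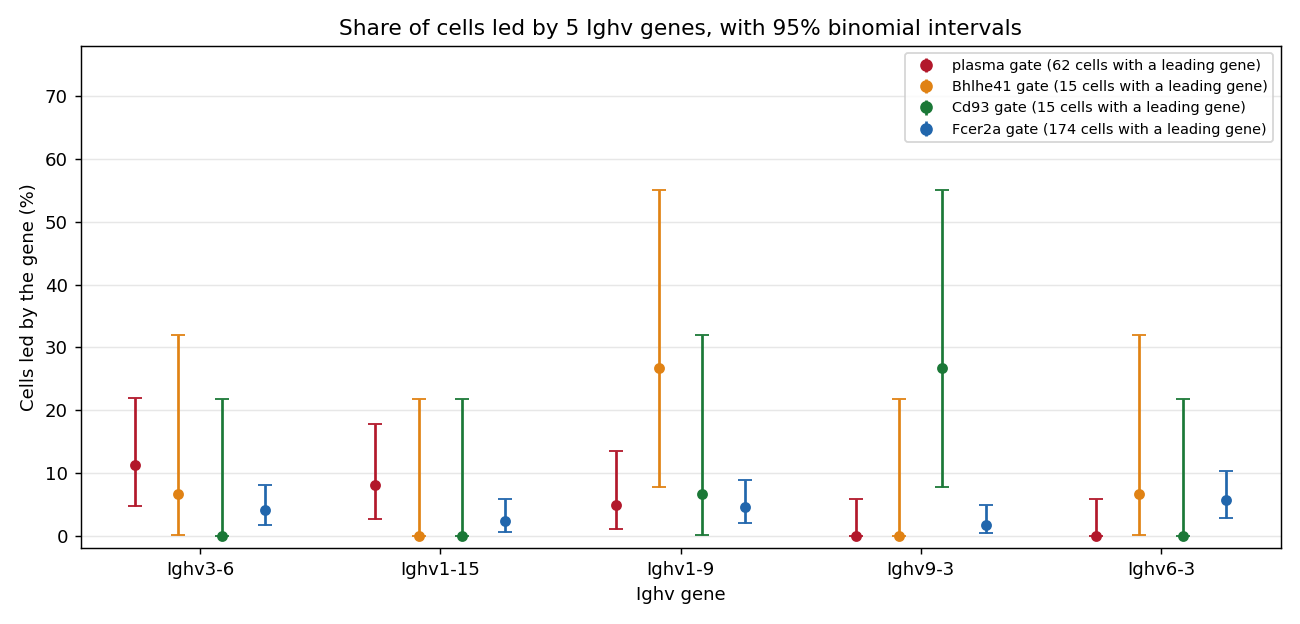
Percent of cells led by Ighv3-6, Ighv1-15, Ighv1-9, Ighv9-3 and Ighv6-3 in the plasma, Bhlhe41, Cd93 and Fcer2a gates, with 95% binomial intervals. Of the pairs with the Fcer2a gate, only Ighv9-3 in the Cd93 gate (26.7% against 1.72%) shows intervals that do not overlap.

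The S1pr3 gate was too thin for usage. It had 12 Ighv UMIs in 9 cells, and 3 cells had a leading gene: Ighv3-6, Ighv1-80 and Ighv7-4, 1 each with 2 UMIs. With single-UMI cells, Ighv3-6 led 2 of 9, and no other gene led more than 1.

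In the Fcer2a gate the 174 leading cells were spread over 62 genes. Ighv6-3 led 10, Ighv1-81 and Ighv1-9 led 8 each (4.60%, 2.01 to 8.86), and Ighv3-6 and Ighv1-26 led 7 each (4.02%, 1.63 to 8.11). Neighbours in this order do not differ beyond their intervals. By UMIs Ighv1-26 was highest with 54 of 914 (5.91%, 4.47 to 7.64). Of these leading genes, 23 led a single cell, 9 led 2 and 30 led 3 or more. Ighv1-72, the classical gene of responses to the hapten nitrophenyl, had 9 UMIs in the plasma gate and 8 in the Fcer2a gate. It led 2 plasma-gate cells and 1 Fcer2a-gate cell. Only 47.2% of its sequence windows were unique, so these counts are uncertain. Ighv7-1, the classical gene of phosphorylcholine-binding antibodies, had 13 UMIs in the plasma gate and 5 in the Fcer2a gate, and led 1 cell in each.

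By family, the large Ighv1 family led shares of cells whose intervals overlapped between gates. It holds 53 of the 113 functional genes and led 32 of 62 plasma-gate cells (51.6%, 38.6 to 64.5), 9 of 15 Bhlhe41-gate cells (60%, 32.3 to 83.7), 7 of 15 Cd93-gate cells (46.7%, 21.3 to 73.4) and 86 of 174 Fcer2a-gate cells (49.4%, 41.8 to 57.1). Family Ighv3 led 9 of 62 plasma-gate cells (14.5%, 6.86 to 25.8), 7 of them by Ighv3-6, against 10 of 174 (5.75%, 2.79 to 10.3). Family Ighv5 led 9 of 62 (14.5%, 6.86 to 25.8), against 25 of 174 (14.4%, 9.52 to 20.5). Family Ighv9 led 5 of 15 Cd93-gate cells (33.3%, 11.8 to 61.6), 4 of them by Ighv9-3, against 8 of 174 (4.60%, 2.01 to 8.86), intervals that do not overlap. Family Ighv6 led 0 of 62 plasma-gate cells, with an interval of 0 to 5.78%, against 15 of 174 (8.62%, 4.91 to 13.8), intervals that overlap. By UMIs, the intervals of the plasma and Fcer2a gates did not overlap for families Ighv3, Ighv5 and Ighv7, which were higher in the plasma gate, and for Ighv1, Ighv4, Ighv6, Ighv8, Ighv9, Ighv10 and Ighv14, which were lower, although the leading-cell intervals overlapped for each of them. Ighv1 held 43.9% of Ighv UMIs in the plasma gate (40.9 to 46.9), against 55.1% in the Fcer2a gate (51.9 to 58.4). Ighv3 held 20.8% in the plasma gate (18.4 to 23.3), against 5.91% (4.47 to 7.64), and Ighv5 held 18.9% (16.6 to 21.4), against 11.5% (9.49 to 13.7). Ighv7 held 8.51% in the plasma gate (6.91 to 10.3), against 1.09% in the Fcer2a gate, and 74 of its 91 plasma-gate UMIs lay in 1 cell. The 5 plasma-gate cells that hold 34.1% of that gate's Ighv UMIs enter these shares in full. Families Ighv11, Ighv12, Ighv13 and Ighv16 led 0 cells in the plasma, Bhlhe41, S1pr3, Cd93 and Fcer2a gates.

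Leading cells were also compared by position along the locus. The functional genes were ranked by distance from the D segments over 2437 kb and cut into 38 proximal, 38 middle and 37 distal genes. In the plasma gate 32.3% of the leading cells used a proximal gene (20.9 to 45.3), 32.3% a middle gene (20.9 to 45.3) and 35.5% a distal gene (23.7 to 48.7). In the Fcer2a gate the shares were 31.0% (24.3 to 38.5), 38.5% (31.2 to 46.2) and 29.9% (23.2 to 37.3), and 1 cell was led by a pseudogene. In the Cd93 gate 7 of 15 cells used a proximal gene (46.7%, 21.3 to 73.4), 4 of these by Ighv9-3. All intervals of leading cells overlapped between gates. By UMIs, proximal genes held 34.2% in the plasma gate (31.4 to 37.2), against 27.5% in the Fcer2a gate (24.6 to 30.5), intervals that do not overlap. Middle genes held 35.1% of UMIs in the plasma gate, against 36.7% in the Fcer2a gate, and distal genes 30.7% in the plasma gate, against 34.8% in the Fcer2a gate, both with overlapping intervals.

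**Figure D5:**
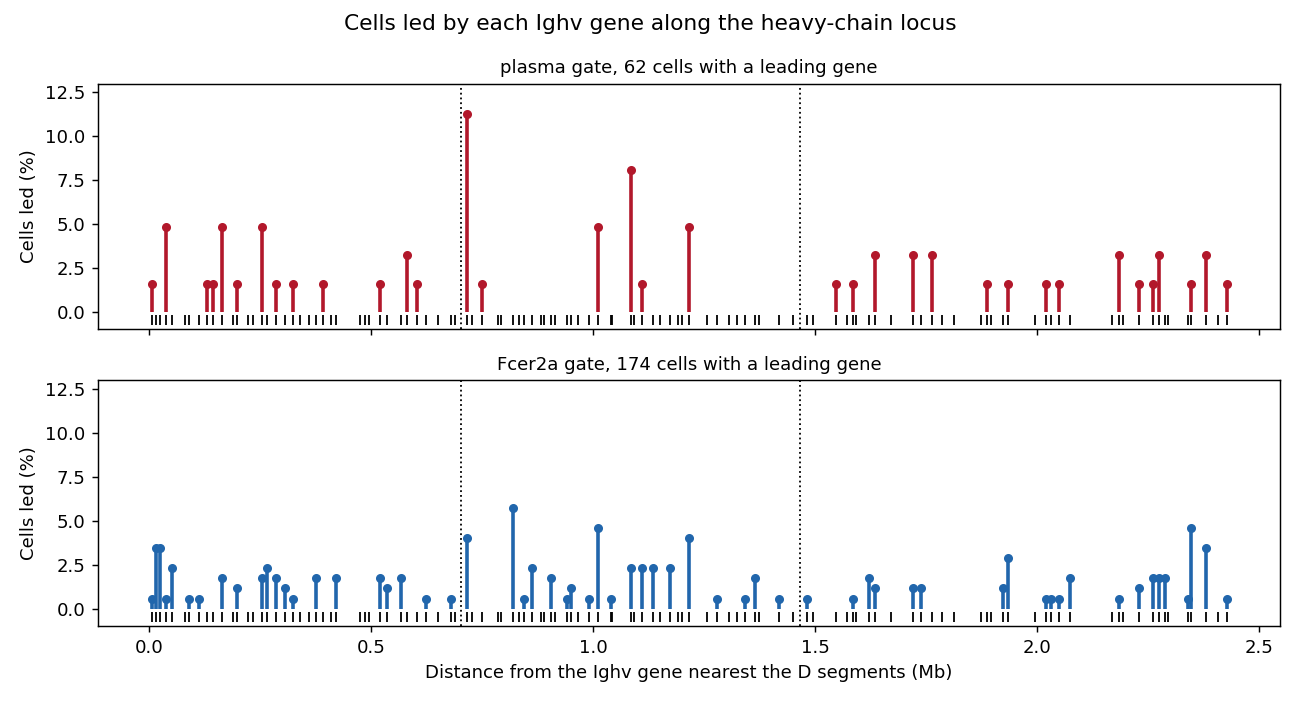
Percent of leading cells per functional Ighv gene along the locus in the plasma gate (top) and the Fcer2a gate (bottom), against distance in Mb from the Ighv gene nearest the D segments; black ticks mark all 113 functional genes and dotted lines part the proximal, middle and distal groups. Led genes run along the whole locus in both gates, with the tallest plasma bar (11.3%) for Ighv3-6 at the start of the middle group and the tallest Fcer2a bar (5.75%) for Ighv6-3.

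Rag1 and Rag2 (the recombinase) and Dntt, which adds bases at the joints, had 0 UMIs in the plasma and S1pr3 gates. Of the list of 14 recombination and repair genes, 11 could be tested in the plasma gate, and 0 were higher and 7 lower than in the Fcer2a gate, with a median log2 ratio of -1.16, beside 7% higher, 56% lower and a median of -1.15 over all genes tested. In the Bhlhe41 gate 1 of 11 was higher and 0 lower (4.3% and 5.7% of all genes tested), and in the S1pr3 gate 1 of 11 was higher and 3 lower (5.85% and 12.5% of all genes), the higher one being in both cases Ung, a uracil glycosylase (26 and 9 UMIs, against 70 in the Fcer2a gate). In the Cd93 gate 3 of 13 were higher and 2 lower (4.44% and 3.42% of all genes). Rag1 had 29 UMIs in 8 cells, against 1 UMI in the Fcer2a gate, and Dntt had 23 UMIs, all in 1 cell, against 1. Rag1 and Dntt reached the UMI minimum for testing only with their Cd93-gate UMIs. That selection favours genes high in the Cd93 gate, so 2 of the 3 higher calls are partly fixed by it. The lower genes were Polh (1 UMI, against 22) and Nhej1 (4, against 53), and both intervals held 0. Xrcc6, an end-joining gene, had 53.9 CPM in the Cd93 gate, against 20.7. None of the Cd93-gate cells with Rag1, Rag2 or Dntt had an Ighv UMI. In the Bhlhe41 gate Rag1 had 7 UMIs in 2 cells.

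Of the list of 14 transcription factors and locus regulators, 3 were higher and 7 lower in the plasma gate than in the Fcer2a gate, with a median log2 ratio of -1.14, beside 7% higher, 56% lower and a median of -1.15 over all genes tested. Scaled without immunoglobulin genes, 4 were higher and 6 lower, beside 14.0% higher and 26.9% lower over all genes tested. The 3 factors higher by CPM were Xbp1 (log2 ratio 4.86, 4.73 to 5.0), Prdm1 (4.70, 4.17 to 5.28) and Irf4 (1.29, 1.07 to 1.51). Pax5 and Ebf1, which hold B cell identity, were among the lower (-6.37, -7.32 to -5.56, and -5.73, -6.13 to -5.35), while Pou2af1, a coactivator at immunoglobulin promoters, was at 285 CPM, against 223 (0.36, 0.22 to 0.49). Pou2af1 was the other of the 4 factors higher when scaled without immunoglobulin genes. In the Bhlhe41 gate 1 of 14 was higher and 0 lower (4.3% and 5.7% of all genes tested). In the S1pr3 gate also 1 was higher and 0 lower (5.85% and 12.5% of all genes), in both cases Prdm1. In the Cd93 gate none passed 2-fold in either direction (4.44% higher and 3.42% lower over all genes). Apart from Prdm1, which had only 12 and 9 UMIs there, all others of the list lay within 2-fold of the Fcer2a gate in these 3 gates.

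The constant genes showed which isotypes the gates carried. Ighm held 20.7% of constant UMIs in the plasma gate, 87.1% in the Bhlhe41 gate, 91.4% in the S1pr3 gate, 84.3% in the Cd93 gate and 75.5% in the Fcer2a gate. Ighd, kept by naive follicular cells, held 0.0110% in the plasma gate, 6.13% in the Bhlhe41 gate, 4.45% in the S1pr3 gate, 12.7% in the Cd93 gate and 21.0% in the Fcer2a gate. Igha held 49.4% and Ighg2c 22.8% in the plasma gate, against 1.97% and 0.953% in the Fcer2a gate. By leading constant gene, 5 of the 140 Bhlhe41-gate cells were Ighg2b and 2 Igha cells. The T gate's constant UMIs were 65.4% Ighm, 19.6% Igha and 9.40% Ighg2c.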

How the data were processed

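The authors deposited whole-number UMI counts per gene symbol and cell barcode, as 1 table with no normalization; per the labels' protocols, the libraries were 3-prime, the sequencer was a HiSeq4000 or Novaseq, and the mapping reference was mm10-3.0.0. The counting program is not given in the sources used here. All 7524 barcodes are distinct, carry the same suffix and no sample name, and 0 columns were left unused.

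The members and gene lists were chosen with earlier results of these data known, and some genes of the panels and lists are not reported here. Barcodes with at least 200 genes and at most 10% mitochondrial UMIs were kept. The plasma gate needed at least 10 Jchain UMIs making up 0.2% of the barcode's UMIs. B cells needed at least 3 UMIs over a panel of 4 B cell genes that includes Cd79a, Cd79b and Ms4a1, at least 0.1% of UMIs, at least 2 of the 4 genes, and no Cd3d, Cd3e or Cd3g. Within them, the Bhlhe41, S1pr3, Cd93 and Fcer2a gates needed 1 UMI of the gate's gene and none of the others, except that the Cd93 gate allowed Fcer2a. Scrublet (in Scanpy 1.11.5) called 137 doublets (2.08%), which were kept in the main values and removed in an alternative. UMIs of a gate were summed and scaled to 1000000 UMIs of the gate (CPM); genes with at least 20 UMIs over both gates were called past 2-fold. Named genes were the 5 with the most leading cells per gate, the 3 largest and 3 smallest ratios of leading shares to the Fcer2a gate among genes leading at least 5 cells over both, the 5 with the most plasma-gate UMIs, and a list of 10; a few others (such as Ighv2-3, Ighv5-9-1, Ighv1-12 and Ighv1-62-3) were named after their values were seen. There is 1 pooled sample, so no p-value or standard error was computed. Intervals came from SciPy 1.17.1 under Python 3.11.15. The ratio and share steps were tested on simulated counts. Positions and germline sequences came from GENCODE vM21, whose assembly GRCm38 is the one that mm10 denotes, matched by symbol for all 183 Ighv genes; uniqueness was judged over 90-base windows of 1 transcript per gene. Genes outside the Ighv symbols were not compared for likeness of sequence. Total UMIs per kept barcode ranged from 500 to 129686, and 3 counts were taken as the most that a count of 0 allows.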

Additional observations from a re-analysis of the deposited data

How the results depend on the processing

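Of 291 recomputed values over 34 results, 260 stayed within the counting interval (or within 1.5 times the count) and 31 did not. Removing Scrublet doublets, other Jchain limits, no mitochondrial maximum, subset markers at 2 UMIs, leaving out the cell with the most Ighv UMIs and, chosen after seeing the data, dropping the Cd3 condition moved none of the values computed under them. No paired analysis was possible because the pooled table has no replicates.

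With a mitochondrial maximum of 5%, 16 Bhlhe41-gate, 13 S1pr3-gate, 18 Cd93-gate and 119 Fcer2a-gate cells were left, with 1 leading cell in each of the first 3 gates and 14 in the Fcer2a gate. The shares of cells with an Ighv UMI were then 18.8% (Bhlhe41), 50% (Cd93) and 45.4% (Fcer2a), and the levels 38.1 (Bhlhe41) and 93.5 CPM (Fcer2a). Ighv9-3 in the Cd93 gate and Ighv1-9 in the Bhlhe41 gate had 0% of UMIs and of leading cells, Ighv6-3 led 0% and Ighv1-26 had 2.60% of UMIs in the Fcer2a gate. The Ighv1 family led 0% (Bhlhe41), 100% (Cd93) and 71.4% (Fcer2a), the leading gene held 100% in the Cd93 gate, and 2.20% of Fcer2a-gate pairs shared a leading gene. The usage results of the B cell gates therefore rest on cells with 5% to 10% mitochondrial UMIs.

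With a leading gene from 1 UMI, the Ighv1 family led 57.8% of Fcer2a-gate cells and the leading gene held 97.6% of their Ighv UMIs. From 5 UMIs, 2 Fcer2a-gate cells were left, with a pair share of 0%, a leading gene at 100% and Ighv6-3 at 0%, and no pair share could be had for the other B cell gates. Without the condition on Fcer2a, 25.2% of S1pr3-gate cells had an Ighv UMI. Thinned to 1000 UMIs, the shares were 38.1% (plasma), 5.92% (Bhlhe41), 2.36% (S1pr3), 7.73% (Cd93) and 10.7% (Fcer2a). With at least 50 UMIs over both gates, 536 genes (Bhlhe41), 1183 (S1pr3) and 355 (Cd93) passed 2-fold, against 998 (Bhlhe41), 1808 (S1pr3) and 789 (Cd93) with 20. Scaled without immunoglobulin genes, 4137 genes passed in the plasma gate, against 6372.

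At the depth of these libraries the S1pr3 gate held 12 Ighv UMIs in 65 cells and 3 leading cells, and in the Bhlhe41 and Cd93 gates 1 more leading cell changes a share by about 1 in 15.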
